A study of Mus musculus with 2 samples.

Results

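Cluster 16 is a group of CD8 T cells in the deposited annotation of CD45+ cells, that is haematopoietic cells, sorted from mouse tumours. Its members are the entries of the deposited cell table that carry the cell type CD8 and the cluster number 16 and whose barcode holds at least 1000 UMIs of mouse genes. The table lists 465 such entries, of which 293 meet the UMI minimum and 172 do not. After 2 entries with a repeated barcode were left out, 291 cells remained, of 907 CD8 cells in 5 clusters and of 8716 cells of all types. The other CD8 cells numbered 616, with 151 in cluster 23, 202 in cluster 33, 139 in cluster 38 and 124 in cluster 44.

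The tumours were grown from 2000000 subcutaneous MC38 cells, a mouse colon carcinoma line, in mice carrying human Fc gamma receptors, and every group shared these features. The antibodies were human IgG1 molecules against mouse GITR, a costimulatory receptor encoded by Tnfrsf18, given as 2 intraperitoneal injections of 100 µg at an interval of 3 days. The labels describe N297A as agonist and Fc-null, GA-aFuc as agonist and Fc enhanced, and GITR/Syn GA-aFuc as non-agonist and Fc enhanced, without saying what Syn stands for. The control is called both PBS and Untreated, and is named Untreated below. Cells were taken 4 days after treatment. The design states 3 mice per treatment, and the 6 hashtags of the library gave 2 N297A mice, 1 GA-aFuc mouse, 1 GITR/Syn GA-aFuc mouse and 2 Untreated mice. Whether a hashtag marks a single animal is not given in the labels, so differences between them measure the spread between these hashed samples.

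CD8 T cells recognise peptides on major histocompatibility complex class I through the T cell receptor and can kill target cells with perforin and granzymes. Under lasting stimulation in tumours they acquire inhibitory receptors such as PD-1, encoded by Pdcd1, while a population with the transcription factor TCF1, encoded by Tcf7, keeps the ability to renew. Activated cells divide, and dividing cells are recognised in expression data by their replication and mitosis genes.

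Cluster 16 yielded 61 and 35 cells in N297A mice, 49 in the GA-aFuc mouse, 64 in the GITR/Syn GA-aFuc mouse, and 57 and 25 in Untreated mice. They held 2484062 mouse UMIs in all, between 224122 and 528531 per mouse. The median cell had 7779 UMIs and 2815 genes, against 8400 UMIs and 2721.5 genes in the other CD8 cells, and mitochondrial genes took a median of 1.49% of UMIs, against 1.61%. The top hashtag held at least 78.2% of the hashtag UMIs in every cell of cluster 16. No doublet caller was run, so pairs of cells from the same mouse would not show. Of all barcodes in the deposited annotation, 34 occurred in 2 entries. Levels are given as CPM, the UMIs of a gene scaled to the same total of mouse UMIs for each mouse and cluster, and differences as log2 of TMM-scaled CPM with a prior count of 2, paired within a mouse.

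The genes that define CD8 T cells were found in cluster 16. The label was given to these same cells, so the levels describe it and are no test of it. Cd8a had 743, 811 and 870.3 CPM as lowest, median and highest of the 6 mice in cluster 16. This coreceptor chain had 627.7 ± 26.7 CPM (SD, n = 6) in the other CD8 cells and 1.74 CPM in macrophages. Cd8b1, the partner chain, averaged 979.7 ± 72.0 CPM in cluster 16 and Cd3d, a T cell receptor subunit, 1244 ± 97.9 CPM. With each cell thinned to 2000 UMIs, 227 of 291 cluster 16 cells had a Cd8a UMI (95% exact interval 72.8% to 82.6%, counting error only), against 66.1% of other CD8 cells and 0.49% of macrophages, whose median depth was 15222 UMIs and of which 4086 of 4104 were deep enough. Without thinning the share was 99.7% in cluster 16. Cd4 had 3 UMIs and Foxp3, the regulatory T cell factor, 2 UMIs in all of cluster 16. No UMI was found for the NK cell receptor gene Ncr1 or the B cell gene Cd79a, and 3 UMIs, the level a count of 0 allows, would be 1.21 CPM.

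**Figure D1:**
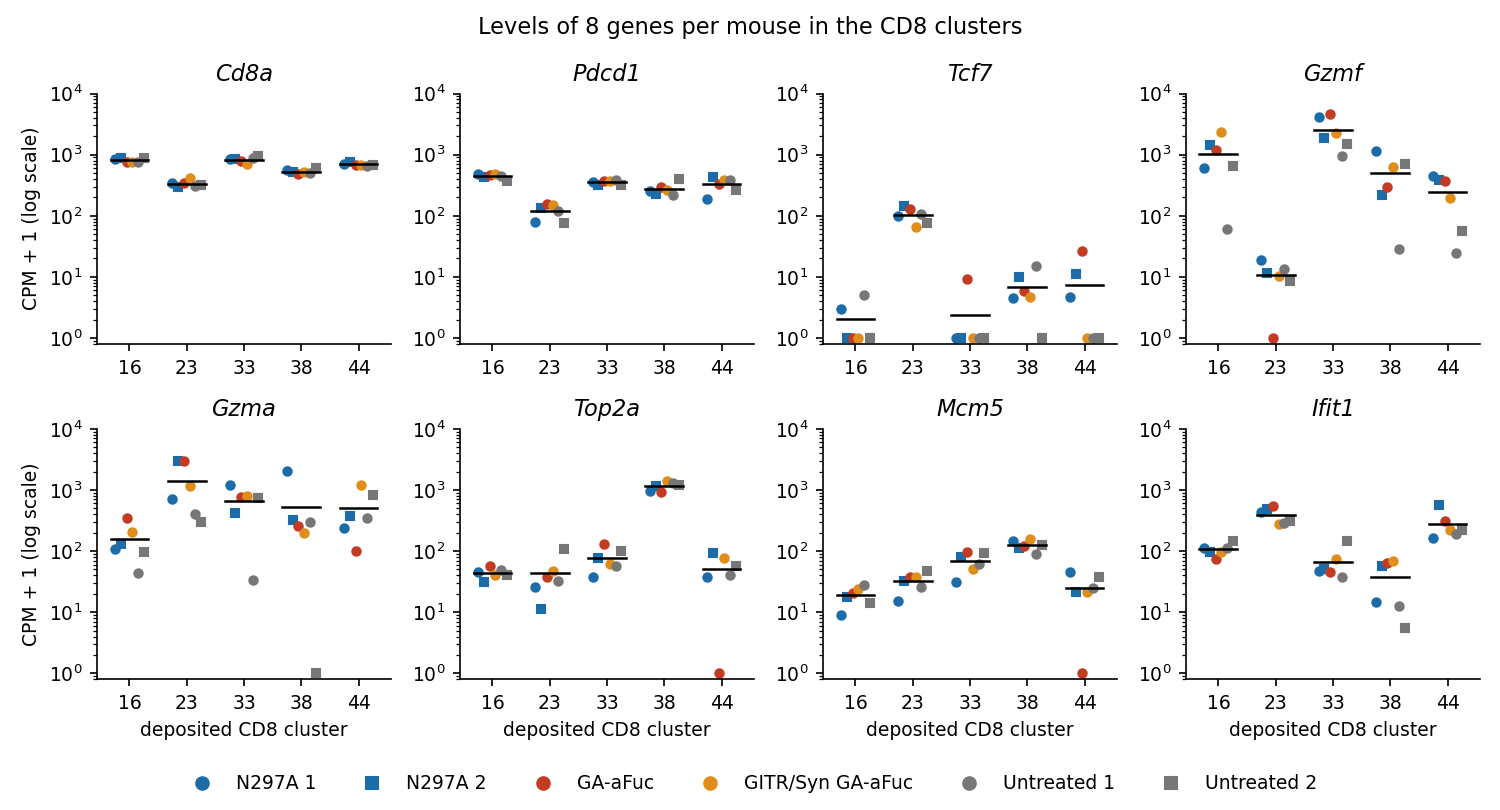
Levels of 8 genes (CPM + 1, log scale) in each deposited CD8 cluster, with a point per mouse coloured by treatment and a bar at the mean of the 6 mice. In cluster 16 Cd8a lay between 743 and 870.3 CPM, Tcf7 between 0 and 4.14 CPM and Top2a between 30.5 and 56.1 CPM, while Gzmf spread from 60.1 to 2306 CPM.

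Set against all other CD8 cells, cluster 16 had higher levels of inhibitory receptor genes such as Pdcd1 and Lag3 and of the costimulatory receptor genes Icos and Cd27, and lower levels of cell cycle genes. Ribosomal genes were lower too, by an amount that depended on the cluster they were set against. Of 6474 genes compared, 11 (0.17%) were higher by at least 1 on the log2 scale on average and in the same direction in 6 of 6 mice, and 258 (3.99%) were lower by the same rule. With no demand on size, 775 genes (12%) were higher and 1033 (16%) lower in every mouse. The median difference over all genes was -0.01. The clusters were made from these same cells, so the comparison of clusters describes them and carries no test. Most of the lower genes rested on cluster 38, since 27 genes were lower when that cluster was taken out of the comparison.

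The gene with the largest positive difference was St6galnac3, a sialyltransferase, with 166 (lowest), 255 (median) and 330.2 (highest) CPM in cluster 16 and 44.3, 96.5 and 124 CPM in the other CD8 cells. The ranges did not overlap, and the paired difference was 1.40 ± 0.32 (SD, n = 6). Csf1, which encodes the macrophage growth factor M-CSF, had 102, 116 and 131 CPM in cluster 16 and 34.7, 51.8 and 80.8 CPM in the other CD8 cells, a difference of 1.03 ± 0.42. Macrophages themselves had 5.37 CPM of Csf1. The other named genes of this set were Atg4a, an autophagy protease, Phactr2, Kdm5b, a histone demethylase, Setbp1, Dlg2, Styk1, Ccdc125 and Sdcbp2, with differences between 1.01 and 1.24. Styk1 averaged 223 CPM in cluster 16, 160 CPM in cluster 33 and 19.6 CPM in cluster 23. The remaining gene of the 11 was the unnamed Gm36975.

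Among 12 measured checkpoint and exhaustion genes, 5 were higher and 1 was lower in cluster 16 in all 6 mice, with a median difference of 0.42. Pdcd1, encoding PD-1, had 366, 454 and 488 CPM in cluster 16, against 241, 295 and 315 CPM in the other CD8 cells. Every cluster 16 value lay above every other value, with a difference of 0.55 ± 0.21. Lag3, an inhibitory receptor that binds class II molecules, differed by 0.85 ± 0.57, and Cd38, a surface enzyme, by 0.68 ± 0.52. Cd160 went the other way, with 28.1, 38.6 and 51.0 CPM in cluster 16 and 39.8, 54.0 and 65.2 CPM elsewhere. At 2000 UMIs per cell, 58.8% of cluster 16 cells had a Pdcd1 UMI, 40.3% of other CD8 cells and 0.24% of macrophages. The checkpoint genes together took a median of 0.228% of a cell's UMIs in cluster 16, against 0.145% in the other CD8 cells. The median difference of the list was 1.39 against cluster 23, 0.16 against cluster 33, 0.48 against cluster 38 and 0.53 against cluster 44, so the distance was shortest to cluster 33.

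Of 8 progenitor, naive and memory genes, 3 were higher and 2 lower in every mouse. Tcf7 had 3 UMIs in all of cluster 16, at 0, 0 and 4.14 CPM, against 64.8, 102 and 145 CPM in cluster 23. No cell of cluster 16 had a Tcf7 UMI at 2000 UMIs per cell, which allows a share of cells with a UMI of up to 1.26% (95% exact interval). The share was 19.2% in cluster 23. Clusters 33, 38 and 44 resembled cluster 16, with no such cell among 202, 139 and 124 cells. Cells that express the gene at this depth without a UMI are not counted by these shares. Xcl1, a chemokine that attracts cross-presenting dendritic cells, was lower by 1.53 ± 1.10 against all other CD8 cells, though against cluster 44 alone it was higher by 0.68. Lef1, a partner of TCF1, differed by -1.15 ± 0.87. Against cluster 23 alone it differed by -2.61, and over 18 alternatives the difference ran from -2.61 to -0.03. Il7r, the receptor for the survival cytokine IL-7, had 178, 244 and 402 CPM in cluster 16 and 130, 148 and 197 CPM in the other CD8 cells.

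Costimulatory receptor genes were higher in 3 of 10 cases and lower in none by the rule of 6 of 6 mice. Icos, a CD28-family receptor, had 589, 691 and 955 CPM in cluster 16 and 424, 442 and 491 CPM in the other CD8 cells, without overlap. Cd27 differed by 0.81 ± 0.25 and Tnfrsf1b, a receptor for tumour necrosis factor, by 0.52 ± 0.15. Tnfrsf18, the antibody target, had 219.6, 269 and 345 CPM in cluster 16 and 168, 232 and 334 CPM elsewhere, a difference of 0.17 ± 0.40 that was positive in 4 of 6 mice. Its ranges overlapped almost entirely. For comparison, regulatory T cells, named as such in the deposited table, had 871 CPM.

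Of 20 genes of T cell receptor signalling, 9 were higher and 1 lower in all mice, with a median difference of 0.29. Plcg1, the phospholipase that produces the second messengers of receptor signalling, had 51.1, 61.3 and 74.5 CPM in cluster 16 and 27.0, 33.2 and 41.0 CPM in the other CD8 cells. Ubash3a, a phosphatase-related regulator of receptor signalling, differed by 0.60 ± 0.09, Themis by 0.53 ± 0.18 and Sla by 0.49 ± 0.18. Among 18 activation-induced genes 2 were higher and 1 was lower in every mouse, no more than the 12% and 16% over all genes. The median of this list was 0.00. Its higher members were Tnfaip3, a brake on NF-kB, and Nr4a2, an early nuclear receptor, and Nfkbia was lower by 0.37. Of 18 transcription factor genes, 6 were higher and none lower. Tbx21, encoding T-bet, had 201, 271 and 321 CPM in cluster 16 and 108, 159 and 226 CPM elsewhere, and Hif1a, the hypoxia factor, had 479, 609 and 955 CPM, against 291, 394 and 489 CPM. Zeb1 was higher by 0.55 ± 0.32 against all other CD8 cells, yet averaged 749 CPM in cluster 23.

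Cytokine receptor and signalling genes were higher in 7 of 18 cases and lower in 1. Il12rb2, a chain of the interleukin 12 receptor, had 447, 485 and 528 CPM in cluster 16 and 243, 277 and 351 CPM in the other CD8 cells. Il18r1 differed by 0.81 ± 0.09, an even spread over the mice, but cluster 23 came close with 232 CPM, against 248 CPM in cluster 16. Socs3, an inhibitor of cytokine signalling, differed by -0.73 ± 0.32. Among 7 killer lectin-like receptor genes, Klri2, Klrd1 and Klrc1 were higher in all mice, by 0.68, 0.39 and 0.28. Reads of this family can be shared between similar copies, so single members are uncertain.

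Granzyme genes varied widely between mice and clusters. Gzma, a tryptase of the cytotoxic granule, had 43.5, 118 and 345 CPM in cluster 16 and 221, 708 and 1245 CPM in the other CD8 cells, a difference of -2.25 ± 0.78 with the same sign in 6 of 6 mice. NK cells had 5069 CPM of Gzma, and barcodes with 10 to 100 UMIs, which carry free RNA, had 442 CPM. At 2000 UMIs per cell, 8.93% of cluster 16 cells had a Gzma UMI, against 16.7% of other CD8 cells and 1.47% of macrophages. Gzmb, the main apoptosis-inducing granzyme, had 1249, 2238 and 3285 CPM in cluster 16 and 1657, 2669 and 3817 CPM elsewhere, a small difference of -0.35 ± 0.12. Gzmc differed by -1.34 ± 0.75, but this rested on cluster 33, with 1304 CPM, while clusters 23, 38 and 44 averaged 58.0, 177 and 89.4 CPM against 228 CPM in cluster 16. Gzmf spanned 60.1, 914 and 2306 CPM over the mice of cluster 16, against 9.65 CPM in cluster 23 and 2555 CPM in cluster 33. Prf1, encoding perforin, averaged 557 ± 219 CPM in cluster 16 and 479 ± 120 CPM in the other CD8 cells, higher in 3 of 6 mice. At 2000 UMIs per cell, 53.3% of cluster 16 cells had a Prf1 UMI, against 35.9% of other CD8 cells. By cluster this share was 13.9% (23), 56.4% (33), 38.1% (38) and 26.6% (44). Of 14 cytotoxic granule genes, 1 was higher and 3 were lower in every mouse, near the 12% and 16% over all genes. Against single clusters the list's median was 0.40 (23), -0.47 (33), 0.33 (38) and 0.07 (44). The genes of this list held over 1% of UMIs in 101 cells of cluster 16 (34.7%), and 4.43% at most. Gzmc, Gzmd, Gzme, Gzmf and Gzmg are similar copies, and the sources used here do not say how shared reads were split between them.

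The neighbouring granzyme promoters are shown because Gzmc and Gzmf had the widest range between clusters. These are the 150 bases before the annotated start in RefSeq on build GRCm38.p6, minus strand of chromosome 14, read 5′ to 3′, and capitals mark the cyclic AMP response element TGACGTCA, a palindrome that reads the same on both strands. They lie at chr14:56234658-56234807 for Gzmc, chr14:56211408-56211557 for Gzmf and chr14:56132594-56132743 for Gzmd.
Gzmc: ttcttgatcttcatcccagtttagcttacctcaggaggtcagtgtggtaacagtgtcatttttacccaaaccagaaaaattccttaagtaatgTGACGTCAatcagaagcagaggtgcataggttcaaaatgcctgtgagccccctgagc
Gzmf: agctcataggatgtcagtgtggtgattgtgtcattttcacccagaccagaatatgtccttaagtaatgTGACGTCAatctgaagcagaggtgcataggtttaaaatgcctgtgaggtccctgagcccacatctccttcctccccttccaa
Gzmd: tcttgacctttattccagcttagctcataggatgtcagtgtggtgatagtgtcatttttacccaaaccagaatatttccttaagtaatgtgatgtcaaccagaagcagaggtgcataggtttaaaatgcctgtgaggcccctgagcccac
The exact letters were found in 3 of 7 granzyme promoters of this gene group, those of Gzmc, Gzmf and Gzmg, and in 1.44% of 27025 promoters. The motif and these promoters were chosen after the levels were known, and a match of letters is a description only.

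Effector cytokine genes were higher in 1 of 10 cases and lower in 2, near the 12% and 16% over all genes. Ifng, the gene of interferon gamma, had 124, 190 and 228 CPM in cluster 16 and 141, 281 and 535 CPM in the other CD8 cells. It was lower by 0.64 ± 0.47 in paired terms, with overlapping ranges. Over 19 alternatives this difference ran from -1.13 to 1.39, so its sign depended on the comparison. The share of cells with an Ifng UMI was not lower. In thinned cells it was 24.4% in cluster 16 and 20.6% in the other CD8 cells, from 12.6% in cluster 23 to 26.6% in cluster 38. Without thinning it was 47.1% in cluster 16 and 46.6% in the other CD8 cells. Cxcl10, a chemokine for CXCR3-bearing cells, had 28.1, 34.2 and 61.2 CPM in cluster 16 and 114, 148 and 380 CPM elsewhere. It was abundant in macrophages, at 618 CPM, and in free RNA, at 757 CPM. Of 16 residency and trafficking genes, 4 were higher and 4 lower in every mouse. Itgb7, an integrin chain for homing to the gut, Cxcr3 and Cxcr4 were lower by 1.62, 1.37 and 1.01 on average. Of the single clusters, Cxcr3 and Cxcr4 could be compared with cluster 23 only, where Cxcr3 differed by -2.68 ± 0.82. In clusters 33, 38 and 44 they had too few UMIs beside cluster 16 to compare. Itgal, the chain of the integrin LFA-1, was higher by 0.43 ± 0.20.

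Genes of cell division showed the largest differences of all. Of 20 DNA replication genes, 19 were lower in every mouse and none was higher, with a median of -1.98, and of 18 mitosis genes 17 were lower, with a median of -3.14. Top2a, the topoisomerase that untangles chromosomes, had 30.5, 42.5 and 56.1 CPM in cluster 16 and 371, 448 and 535 CPM in the other CD8 cells, a difference of -3.40 ± 0.41. Pclaf, a partner of the replication clamp, had 1.89, 10.3 and 17.8 CPM in cluster 16 and 319, 384 and 436 CPM elsewhere. Macrophages had 125 CPM and free RNA 76.4 CPM of Pclaf, both above cluster 16. The named genes with the largest negative differences were H1f5, Pclaf, Rrm2, Nusap1, H2ac24, Ccna2, H3c3, Spc24, Esco2, Cenpp, H2ac4, Cenpf, Fbxo5, Birc5 and Prc1, between -5.73 ± 1.24 for H1f5 and -3.82 ± 0.92 for Prc1. Histone genes have similar copies and are uncertain one by one. The mitosis genes took a median of 0.080% of UMIs in cluster 16 and over 1% in none of its 291 cells, which allows a share of such cells of up to 1.26% (95% exact interval), against 82 of 139 cells in cluster 38.

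The mitosis list differed mainly from cluster 38. Its median difference was -3.95 against cluster 38, with 20 of 20 genes lower, but 0.00 against cluster 23 and -0.22 against cluster 44, where 5 genes each could be compared. Against cluster 33 the replication genes were lower in 13 of 13 cases, with a median of -1.38. There Mcm5, a subunit of the replicative helicase, averaged 17.9 CPM in cluster 16 and 68.2 CPM in cluster 33, and Hells, a chromatin remodeller, 17.6 CPM and 72.9 CPM. Stmn1, a microtubule regulator, averaged 57.1 CPM in cluster 16 and 187 CPM in cluster 33.

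Promoters of 3 mitosis genes are shown, taken from the 7 of this list that hold both motifs below. Mitotic promoters are known for pairs of CCAAT boxes and for a CHR element, letters that the NF-Y and DREAM complexes bind. The stretches are the 150 bases before the RefSeq start on GRCm38.p6, read 5′ to 3′ on the strand of the gene. Capitals mark CCAAT or its complement ATTGG and the CHR letters TTTGAA or their complement TTCAAA. They lie at chr11:99024190-99024339 for Top2a, minus strand, chr10:69352913-69353062 for Cdk1, minus strand, and chr2:164769779-164769928 for Ube2c, plus strand.
Top2a: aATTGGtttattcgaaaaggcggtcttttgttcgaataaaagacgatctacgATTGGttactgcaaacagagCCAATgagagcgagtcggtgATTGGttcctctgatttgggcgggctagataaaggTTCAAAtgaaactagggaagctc
Cdk1: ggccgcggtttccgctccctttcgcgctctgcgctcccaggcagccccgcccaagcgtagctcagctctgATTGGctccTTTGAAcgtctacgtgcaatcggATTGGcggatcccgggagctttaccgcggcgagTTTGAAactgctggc
Ube2c: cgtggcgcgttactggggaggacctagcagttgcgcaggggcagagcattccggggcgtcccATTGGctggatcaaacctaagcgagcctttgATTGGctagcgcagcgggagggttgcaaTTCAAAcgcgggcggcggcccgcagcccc
A CCAAT box was present in 15 of 18 mitosis promoters with a sequence, or 83.3%, and in 25.3% of all 27025 promoters. Both motifs together occurred in 7 of 18 mitosis promoters, in 0 of 18 replication promoters and in 2.32% of all promoters. Among the 15 genes most below the other CD8 cells, 12 had a promoter sequence, of which 9 held a CCAAT box, 1 the CHR letters and 1 both. The motifs do not overlap in the 3 stretches printed, and the promoters were chosen after the levels were known.

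Genes of the cytosolic ribosome and of oxidative phosphorylation were lower by smaller steps. All but 1 of 20 cytosolic ribosome genes were lower in every mouse, with a median of -0.28, and Rps2 had 1490, 1634 and 1803 CPM in cluster 16 against 2084, 2364 and 2641 CPM in the other CD8 cells. The list stood at -0.04 against cluster 23, with 3 of 20 genes lower, at -0.13 against cluster 38, with 9 lower and 2 higher, and at -0.25 against cluster 44, with 16 lower. Of 18 oxidative phosphorylation genes 11 were lower, with a median of -0.41, among them Cox5a, a subunit of cytochrome oxidase, at -0.56 ± 0.11, and Sdhd at -0.95 ± 0.40. Against cluster 23 its median was 0.02, with 1 of 16 genes higher and 1 lower. Of 18 glycolysis and hypoxia genes 4 were lower, near the 16% over all genes, including Ldha, lactate dehydrogenase, at -0.32 ± 0.16. The sign of glycolysis depended on the cluster it was set against. Its median was 0.82 against cluster 23, with 13 of 14 genes higher in every mouse, and -0.51 against cluster 33, with 8 of 17 lower. Pgk1 averaged 1.32 ± 0.35 above cluster 23 and was 0.61 below cluster 33. Of 20 cytoskeleton and adhesion genes 6 were lower, Actb by 0.28 ± 0.09. Heat shock and stress genes were lower in 6 of 13 cases and higher in 1, Txnip.

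Interferon response genes placed cluster 16 between its neighbours. Of 27 type I interferon response genes, 1 was higher and 1 lower in every mouse against all other CD8 cells, with a median of -0.04. Against cluster 23 the median was -1.12, with 20 of 26 genes lower, where 9.07% of all genes were. Against cluster 44 it was -0.67, with 8 of 23 lower, where 6.71% of all genes were. Against clusters 33 and 38 it was 0.61 and 0.63. There 6 and 7 of 23 genes were higher in every mouse, where 14.5% and 16.1% of all genes were. Ifit1, an RNA-binding antiviral protein, averaged 106 ± 24.7 CPM in cluster 16, 390 ± 113 CPM in cluster 23, 65.7 ± 40.6 CPM in cluster 33, 36.1 ± 29.1 CPM in cluster 38 and 279 ± 147 CPM in cluster 44 (SD, n = 6). Its level in free RNA was 107 CPM, close to that of cluster 16. Of 22 genes of interferon-gamma GTPases and antigen presentation, 6 were higher and 3 lower. Nlrc5, the activator of class I genes, had 266, 288 and 307 CPM in cluster 16 and 146, 192 and 219 CPM in the other CD8 cells.

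**Figure D2:**
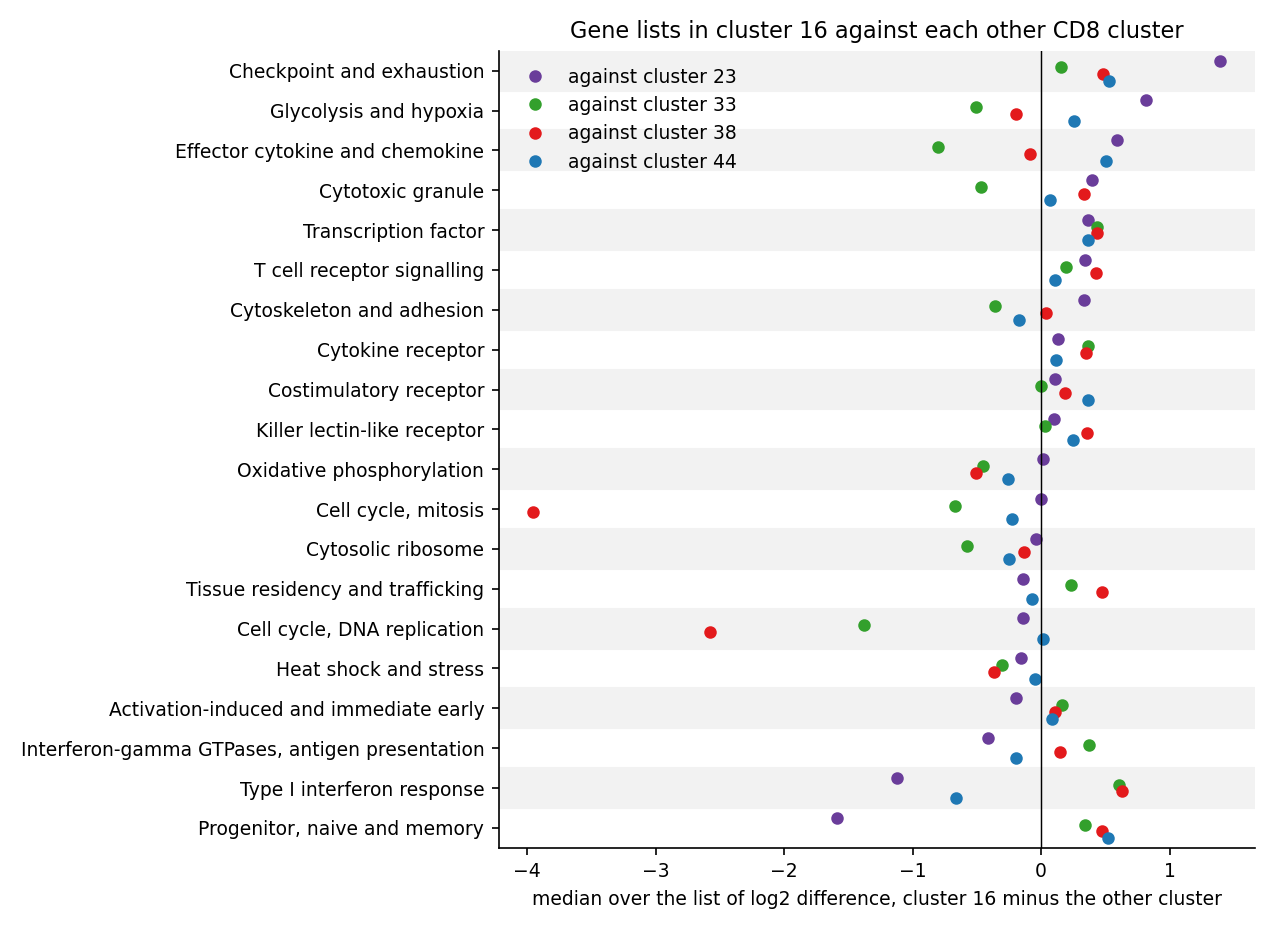
Median log2 difference of each of 20 gene lists, cluster 16 minus each other CD8 cluster, with a colour per cluster. Mitosis genes stood at -3.95 against cluster 38, checkpoint genes at 1.39 against cluster 23, and type I interferon genes had opposite signs against clusters 23 and 44 on the one hand and 33 and 38 on the other.

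By the 2-fold rule, cluster 38 had the most genes above cluster 16 and cluster 44 the fewest. The clusters differed in depth, with a median of 5242 UMIs per cell in cluster 23, 9912 in 33, 15116 in 38 and 5979.5 in 44. In Untreated replicate 2, cluster 44 had 9 cells with 54106 UMIs. The part of depth and cell number in these counts was not tested. Against cluster 23, 129 of 4046 genes (3.19%) were higher by the 2-fold rule and 110 (2.72%) lower, and without a demand on size 10.1% were higher and 9.07% lower in every mouse. Cluster 16 had 106 CPM of Tnfrsf4, the costimulatory receptor OX40, against 8.21 CPM in cluster 23, and 403 CPM of Rgs16, a regulator of G protein signalling, against 34.2 CPM. It had 1.00 CPM of Klra7, a Ly49 receptor, against 137 CPM, and 1.49 CPM of S1pr1, the receptor for leaving tissue, against 94.7 CPM. Klrh1, a lectin-like receptor, averaged 156 CPM in cluster 16, and no UMI of it was found among 879934 UMIs of cluster 23, where 3 UMIs would be 3.41 CPM.

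Against cluster 33, 45 of 5386 genes (0.835%) were higher and 55 (1.02%) lower, and 14.5% and 16.6% were so in every mouse at any size. Bach2, a repressor that restrains effector differentiation, averaged 269 ± 122 CPM in cluster 16 and 80.9 ± 29.6 CPM in cluster 33, 1.49 ± 0.56 higher in paired terms. Nt5e, the enzyme CD73, averaged 159.8 CPM in cluster 16 and 66.4 CPM in cluster 33. All 20 ribosome genes were lower than in cluster 33, with a median of -0.57.

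Against cluster 38, 95 of 5615 genes (1.69%) were higher and 433 (7.71%) lower, the cell cycle genes among them, and at any size 16.1% were higher and 19.6% lower in every mouse. Ccl5, a chemokine of effector T cells, averaged 2423 ± 765 CPM in cluster 16 and 700.0 ± 400.2 CPM in cluster 38. Against cluster 44, 61 of 4055 genes (1.5%) were higher and 9 (0.222%) lower, and at any size 7.13% were higher and 6.71% lower in every mouse. Ikzf2, encoding Helios, averaged 459 ± 59.6 CPM in cluster 16 and 108 CPM in cluster 44, and the potassium channel gene Kcnq5 354 CPM and 84.1 CPM. Lower than in cluster 44 were Itgb7, Ccr2, Ifit1, Emb, Irf7, Ifit1bl1, Gzmk, Rtp4 and Socs3. Irf7, the amplifier of interferon responses, differed by -1.10 ± 0.17, with 110 CPM in cluster 16 against 226 CPM in cluster 44.

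Longer genes were higher in cluster 16. With 6456 genes matched to their annotated span from start to end, the median difference from the other CD8 cells was -0.24 in the shortest of 5 equal groups, then -0.12, -0.03, 0.13 and 0.22 in the longest group, whose median span was 123 kb. The shortest group lay below the longest in each of the 6 mice. In the shortest group 3.41% of genes were higher in every mouse, and in the longest 26.5%. When the 258 genes lower by the 2-fold rule were left out, the shortest group stood at -0.22 and the longest at 0.23. The nuclear noncoding RNA Malat1 had 12239, 13727 and 14542 CPM in cluster 16, against 7722, 9435 and 11010 CPM in the other CD8 cells, and cluster 23 averaged 16978 CPM. The sources used here do not say whether intronic reads were counted, and their part in this pattern was not tested.

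**Figure D3:**
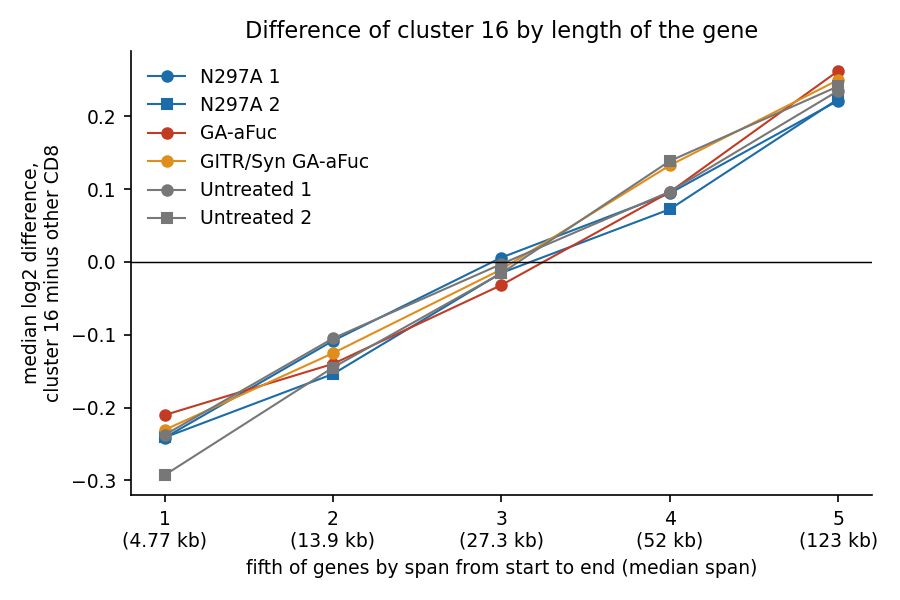
Median log2 difference, cluster 16 minus the other CD8 cells, in 5 equal groups of genes ordered by annotated span, with a line per mouse. All 6 lines run from below -0.2 in the shortest group to above 0.2 in the longest.

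Markers of other cell types moved in different ways. The summed macrophage markers lay at 573, 671 and 2131 CPM in cluster 16 and 974, 1131 and 1493 CPM in the other CD8 cells, with the highest value in the GA-aFuc mouse. In that mouse a single cell of 22069 UMIs carried 2.47% macrophage-marker UMIs, the only cluster 16 cell over 1%. Summed NK cell markers lay at 276, 296 and 594 CPM, again highest in the GA-aFuc mouse, with Ncr1 at 0, and dendritic cell markers at 330.2, 348 and 965 CPM, with Xcr1 and Clec9a at 0. In the other CD8 cells these sums were 499, 535 and 685 CPM for NK cells and 637, 802 and 945 CPM for dendritic cells. The regulatory T cell list summed to 991, 1142 and 1273 CPM in cluster 16 and 724, 840 and 1182 CPM in the other CD8 cells, carried by Ctla4 and Ikzf2, which CD8 cells also express, with Foxp3 at 2 UMIs. The monocyte list summed to 2459, 2940 and 3762 CPM in cluster 16 and 2540, 2736 and 3497 CPM elsewhere, carried by Ly6c2 and Plac8, also known in T cells. CD4 markers summed to 140, 216 and 245 CPM in cluster 16 and 112, 253 and 279 CPM in the other CD8 cells. B cell, neutrophil, gamma-delta T cell and tumour epithelial markers reached at most 4.46, 22.3, 4.14 and 6.22 CPM.

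The share of CD8 cells that fell in cluster 16 was 27.6% and 32.1% in N297A mice, 36.6% in the GA-aFuc mouse, 39.5% in the GITR/Syn GA-aFuc mouse, and 28.6% and 30.5% in Untreated mice. N297A and Untreated mice overlapped, with a mean difference of 0.29 percentage points (2 mice each, two-sided exact permutation p = 1, where 0.333 is the smallest possible). Both mice with an Fc-enhanced antibody lay above the other 4 by 8.33 points on average, where those 4 had a mean of 29.7%. The exact permutation p of 0.0667 is the smallest that 2 against 4 mice can give, so the design cannot reach 0.05. As a share of all annotated cells the same difference was 1.02 points, with an exact permutation p of 0.333.

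**Figure D4:**
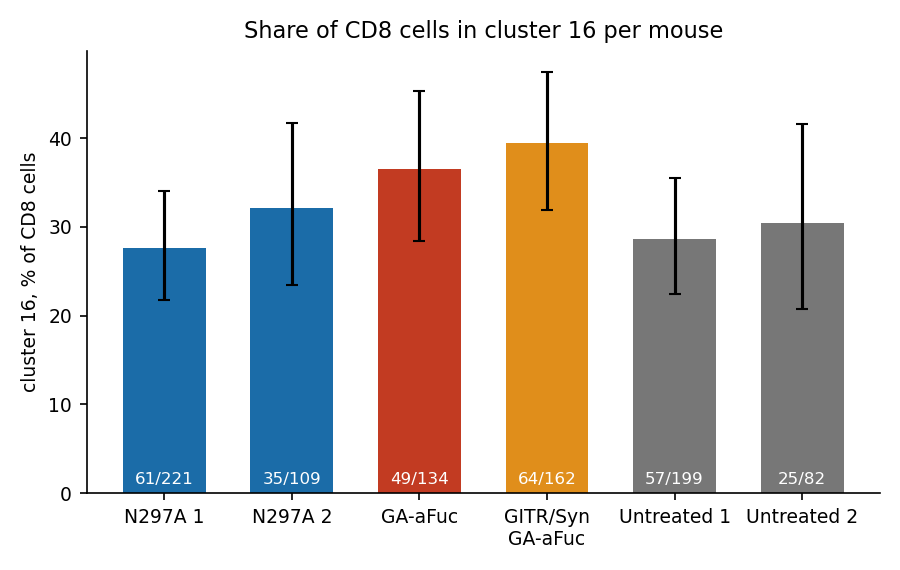
Share of each mouse's CD8 cells that belong to cluster 16, with 95% exact binomial intervals for counting error and the cell numbers in the bars. The mice given GA-aFuc (36.6%) and GITR/Syn GA-aFuc (39.5%) stand highest, and the 4 N297A and Untreated mice between 27.6% and 32.1%.

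Treatment comparisons within cluster 16 used edgeR on the summed UMI counts of 7173 genes, with 2 residual degrees of freedom over the 6 mice, and the treatments with a single mouse are assumed to vary like the others. N297A against Untreated gave 0 genes (0%) at an adjusted p under 0.05 in edgeR, 245 at an unadjusted p under 0.05, and 0 with DESeq2. Of 14 cytotoxic granule genes 13 had positive fold changes, with a median of 0.34, and none passed. Over all genes the median was 0.00 and 3607 of 7173 were positive. Of 20 cytosolic ribosome genes 19 were positive too, with a median of 0.12. Gzmc had 451 and 230.3 CPM in N297A mice and 62.2 and 116 CPM in Untreated mice, log2 fold change 2.13 with an adjusted p of 0.977 in edgeR. Tnfrsf18 had 345 and 257 CPM in N297A mice, 326 CPM in the GA-aFuc mouse, 248 CPM in the GITR/Syn GA-aFuc mouse, and 219.6 and 281 CPM in Untreated mice, and passed in no comparison.

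GA-aFuc against Untreated gave 9 genes (0.125%) in edgeR, all higher. Gzma rose in the only GA-aFuc mouse, with 345 CPM there and 43.5 and 93.7 CPM in Untreated mice, a log2 fold change of 2.52 (SE 0.32, edgeR adjusted p = 0.000254). In the GA-aFuc mouse 18 of 49 cells had a Gzma UMI, and the cell with most held 49 of 160 UMIs. The call held in 11 of 11 alternatives, with adjusted p up to 0.0475 under DESeq2. NK markers were highest in that same mouse, and their part in the Gzma level was not tested. In the other CD8 cells Gzma differed by 1.34 with an edgeR adjusted p of 0.994.

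For the other 8 genes called for GA-aFuc, 1 cell held at least 38.5% of the UMIs in that mouse. Cox6a2 and Ccr9 had 46 and 39 UMIs in the GA-aFuc mouse, all in 1 cell of 18315 UMIs, and none in Untreated mice, where 3 UMIs would be 4.24 CPM. Klra5, a Ly49 receptor, had 79 UMIs in 5 cells. Apoe, a lipid carrier of macrophages, had 1032 CPM in the GA-aFuc mouse and 321 and 201 CPM in Untreated mice, and 317 of its 478 UMIs came from the cell with the macrophage markers. That cell also held 152 of 312 UMIs of Cd74, 58 of 123 of H2-Aa and 60 of 128 of H2-Ab1, class II genes of antigen-presenting cells. Tyrobp, an adaptor of NK and myeloid cells, had 40 of 104 UMIs in the cell with Cox6a2 and Ccr9. Without cells over 1% macrophage-marker UMIs, 4 calls were left.

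GITR/Syn GA-aFuc against Untreated gave 5 genes (0.0697%) in edgeR, of which 3 rose and 2 fell, and 0 with DESeq2. Bach2 fell in the only GITR/Syn GA-aFuc mouse, to 134 CPM, against 354 and 464 CPM in Untreated mice, a log2 fold change of -1.55 (SE 0.30, edgeR adjusted p = 0.0427). The N297A mice had 257 and 169 CPM of Bach2 and the GA-aFuc mouse 237 CPM, so all 4 treated mice lay below both Untreated mice. Bach2 did not pass for N297A or GA-aFuc against Untreated, and how many genes share this order was not counted. In the other CD8 cells Bach2 also fell with GITR/Syn GA-aFuc, by 1.24 (edgeR adjusted p = 0.000864). Rsad2, an interferon-induced antiviral enzyme, fell to 13.2 CPM, against 78.7 and 161 CPM in Untreated mice, where 17 of 38 and 25 of 36 UMIs came from 1 cell each. Of 27 type I interferon response genes 26 had negative fold changes in this comparison, with a median of -0.57 against -0.00 over all genes, where 3619 of 7173 were negative, but Rsad2 alone passed. Against the same Untreated mice, 21 of these 27 genes were negative with GA-aFuc (median -0.32) and 19 with N297A (median -0.15). The summed level of the list was 7379 CPM in the GITR/Syn GA-aFuc mouse, and 7825 and 11391 CPM in Untreated mice. The smaller Untreated value thus lay close to that of the GITR/Syn GA-aFuc mouse and below the 8493 and 9052 CPM of the N297A mice. Gzma rose to 204 CPM, a log2 fold change of 1.75 with an adjusted p of 0.0427, and 52 of its 108 UMIs lay in 1 cell. Klf2, a factor of quiescence and recirculation, rose to 123 CPM, with 30 of 65 UMIs in 1 cell, and Hspa1a, a heat shock protein, had 64 of 65 UMIs in 1 cell. The calls for Bach2 and Rsad2 each held in 5 of 11 alternatives, with adjusted p from 0.000892 to 1 for Bach2.

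GA-aFuc against N297A gave 12 genes (0.167%), 11 higher and 1 lower. Gzma rose by 1.55 (edgeR adjusted p = 0.0198), with 345 CPM in the GA-aFuc mouse and 108 and 129 CPM in N297A mice. This call did not hold under DESeq2, without the top 5% of cells by UMIs or without N297A replicate 1, and over its 11 alternatives the adjusted p in edgeR or DESeq2 ran from 0.000146 to 1.00. Also higher were Apoe, Cd74, H2-Aa, H2-Ab1, Tyrobp, Cox6a2 and Ccr9, with the uneven counts given above, and C1qa, Psap and Ctsz, genes of myeloid cells, and the unnamed Gm47283 fell (edgeR adjusted p = 0.0051). In the GA-aFuc mouse the cell with the macrophage markers held 53 of 116 UMIs of C1qa and 18 of 66 of Ctsz. For Psap a different cell held the most, 26 of 123 UMIs. The calls for C1qa, Psap and Ctsz did not hold without cells over 1% macrophage-marker UMIs. The comparisons share the mice of their groups and are not independent.

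**Figure D5:**
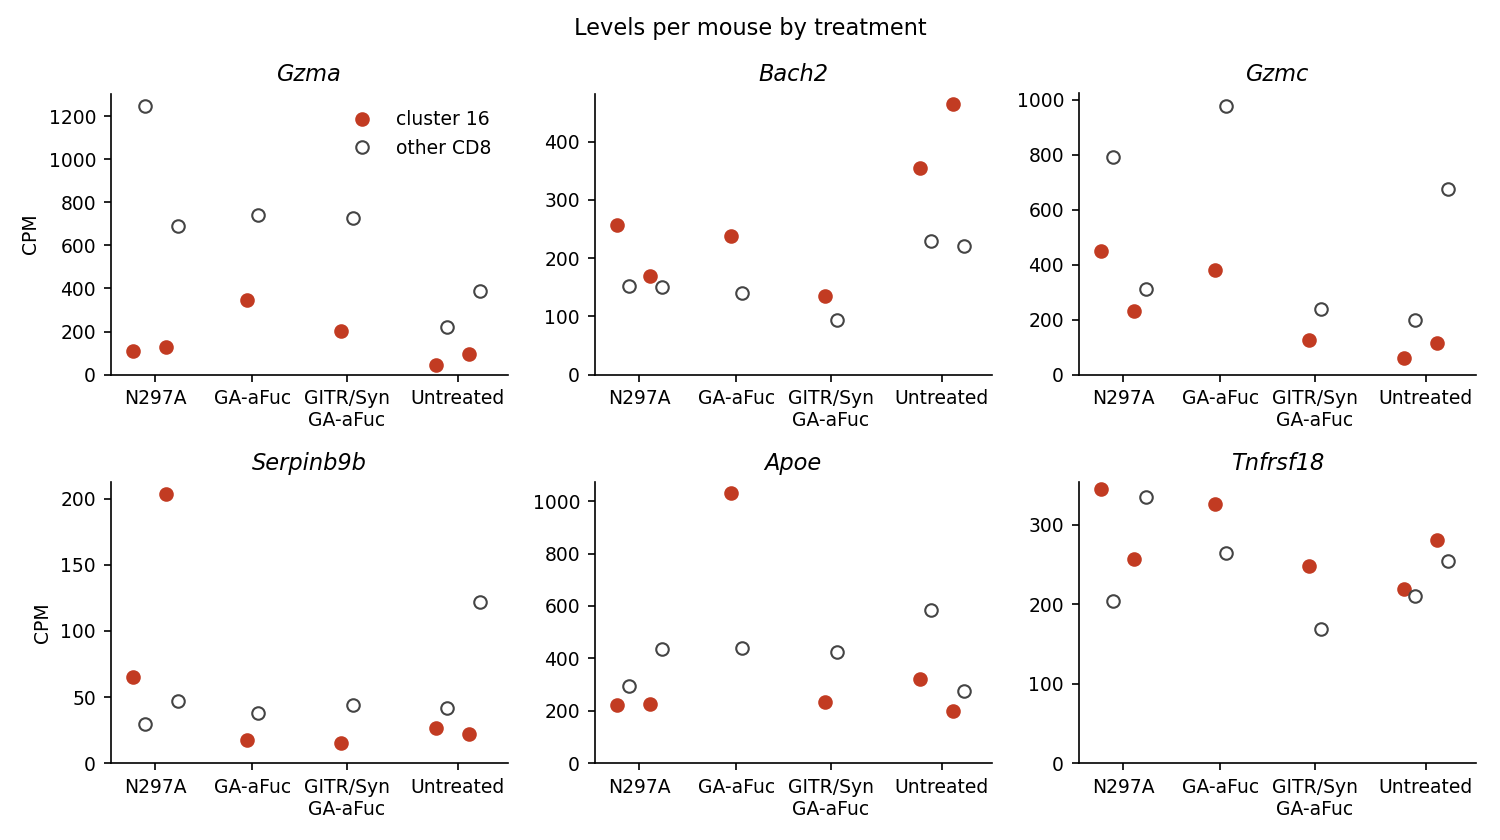
Levels in CPM per mouse by treatment for 6 genes, with filled points for cluster 16 and open points for the other CD8 cells. Gzma of cluster 16 stood at 345 CPM in the GA-aFuc mouse, Bach2 was highest in the 2 Untreated mice, and Apoe reached 1032 CPM in the GA-aFuc mouse.

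Whether N297A acted differently in cluster 16 and in the other CD8 cells was tested in edgeR with the mouse as a block, over 8324 genes, of which 3 (0.036%) passed and 0 with DESeq2. The N297A effect on Serpinb9b, a serpin of the family that inhibits granzyme B, was larger in cluster 16 by 3.08 (SE 0.46, edgeR adjusted p = 3.13e-05). It had 65.3 and 203 CPM in N297A mice and 26.9 and 22.3 CPM in Untreated mice of cluster 16, and 29.5 and 46.8 CPM in N297A mice and 42.0 and 122 CPM in Untreated mice of the other CD8 cells. For Gzmc the effect was larger by 1.48 (SE 0.25, edgeR adjusted p = 0.000139), with 135 of 221 UMIs of N297A replicate 1 in a single cell. Mt1, a metal-binding stress protein, gave -1.12 (edgeR adjusted p = 0.0323), as it rose in the other CD8 cells, by 1.05 (edgeR adjusted p = 0.000783), and had 147 and 332 CPM in N297A mice and 249 and 232 CPM in Untreated mice in cluster 16. None of the 3 passed when the top cell of each gene in each mouse was left out, and none passed without Untreated replicate 2. The corresponding difference was not tested for the antibodies given to 1 mouse.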

How the data were processed

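The deposited matrix holds raw UMI counts per feature and barcode, made by the authors with Cell Ranger 9.0.0 per the file headers, on a combined human and mouse reference (GRCh38 and GRCm39) per the feature names. Treatment, cell type and cluster come from the authors' cell table, whose filtering and clustering the sources used here do not describe. Table entries with at least 1000 mouse UMIs were kept. These numbered 8767, less 18 that repeated a barcode and 33 whose hashtag did not match their treatment. Counts were summed per mouse and cluster. Differences between clusters are paired within mice, on TMM-scaled log2 CPM, without a test. Treatments were compared with edgeR 4.0.16 (R 4.3.3, quasi-likelihood, robust, Benjamini-Hochberg adjustment, threshold 0.05), and DESeq2 1.42.0 was an alternative. Scripts were tested on simulated data. Named genes are the up to 15 largest differences of at least 20 CPM each way, up to 4 members of each list, up to 12 per cluster pair and up to 10 per treatment comparison, and genes outside this rule were chosen after their values were seen. Cells, lists and comparisons were chosen with earlier results of these data known. Gene spans come from a GENCODE mouse annotation, matched by gene identifier. Promoters come from RefSeq on GRCm38.p6, matched by symbol.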

Additional observations from a re-analysis of the deposited data

Results flagged for a closer look

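Of 98 named genes examined, 3 had a mouse whose difference between cluster 16 and the other CD8 cells stood apart from the other 5 by Dixon's test, which chance alone marks in about 1 of 20 groups. Nr4a2, an early nuclear receptor, differed by 1.18 in the GA-aFuc mouse, against 0.23 to 0.52 in the others. Nlrc5 differed by 0.96 in Untreated replicate 2, against 0.35 to 0.55 in the others. Tmsb10, an actin-binding peptide gene, differed by -0.095 in N297A replicate 2, against -0.48 to -0.37 in the others.

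The N297A effect differed between cluster 16 and the other CD8 cells for 3 genes in edgeR's test of that difference. The values were 3.08 for Serpinb9b, 1.48 for Gzmc and -1.12 for Mt1 on the log2 scale. In N297A replicate 2, 7 of 35 cells had a Serpinb9b UMI, 12 a Gzmc UMI and 21 an Mt1 UMI. Serpinb9b and Gzmc each passed in 8 of 12 alternatives and Mt1 in 5.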

How the results depend on the processing

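The number of genes higher in cluster 16 depended on the scaling. It was 17 with a prior count of 0.5, 25 with total UMIs in place of TMM (236 lower), which moved the median of all genes to 0.06, and 17 with every gene of at least 1 UMI (493 lower). Weighting the other clusters equally gave 42 higher and 73 lower, against 11 and 258. Thinning to 2000 UMIs gave 25 lower, but of only 2231 genes that could still be compared, against 6474. Leaving out cluster 38 gave 27 lower of 5823 genes. Single clusters gave 129 and 110 (cluster 23), 45 and 55 (33), 95 and 433 (38) and 61 and 9 (44). Leaving out a mouse gave 9 to 24 higher, with 18 without N297A replicate 2 and 24 without Untreated replicate 1, and 260 to 291 lower. Gzmc changed sign with equal weighting (0.14) and against clusters 23 (1.58), 38 (0.16) and 44 (1.61), and Xcl1 against cluster 44 (0.68). Comparisons with single clusters, without cluster 38 and without cells rich in macrophage markers were chosen after seeing the data.

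DESeq2 gave 3 for GA-aFuc, 0 for GITR/Syn GA-aFuc, 2 for GA-aFuc against N297A and 0 for the N297A difference between cell groups. For GITR/Syn GA-aFuc, DESeq2 size factors gave 2 and a minimum of 10 UMIs gave 1, which gave 6 for the N297A difference. Without the top 5% of cells by UMIs, GITR/Syn GA-aFuc gave 2, GA-aFuc against N297A 5 and the N297A difference 0. Without each gene's top cell the counts were 3 for GA-aFuc, 1, 4 and 0. Without macrophage-marker cells GA-aFuc gave 4 and GA-aFuc against N297A 5. The causes were not tested beyond these settings.

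Leaving out mice gave 0 to 9 genes for N297A, 9 without N297A replicate 1, 8 without Untreated replicate 1 and 2 without either other mouse. It gave 7 to 19 for GA-aFuc, 19 and 17 without N297A replicates 1 and 2 and 18 without Untreated replicate 2. For GITR/Syn GA-aFuc it gave 2 to 28, 14 and 16 without the N297A replicates, 28 without Untreated replicate 1 and 2 without Untreated replicate 2. GA-aFuc against N297A gave 11 to 27, 27 without Untreated replicate 2. The N297A difference gave 0 to 13, 6 without N297A replicate 2, 13 without Untreated replicate 1 and 0 without Untreated replicate 2. The N297A share difference turned to -1.96 points without N297A replicate 2 and -0.63 without Untreated replicate 1, within a range of -1.96 to 2.54. The Fc-enhanced difference kept its sign, at 6.86 to 9.80 points. No paired analysis was possible because the labels give no replicate numbers shared between treatments. Depth of 224122 UMIs in the smallest mouse limits low genes.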

Other observations

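The cell table also holds 10443 entries with too few UMIs in this library, without a mouse. Among their CD8 entries, cluster 16 made up 31.3% with N297A (21 of 67), 34.3% with GA-aFuc (71 of 207), 31.3% with GITR/Syn GA-aFuc (42 of 134) and 29.0% Untreated (38 of 131). In the library, pooled over mice, the shares were 29.1%, 36.6%, 39.5% and 29.2% in the same order. The mouse behind each entry is unknown, so no test was made, and this comparison was chosen after seeing the data.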
